A study of Homo sapiens with 4 samples.

Results

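Palbociclib and indisulam were given together to SUM159 cells, and the comparison described here set their transcriptome against that of untreated cells. SUM159 is an established mesenchymal triple-negative breast cancer (TNBC) line, which lacks the estrogen and progesterone receptors and amplified HER2. Genes were included when their mean over both libraries reached 5 CPM, where CPM is the number of reads in a gene divided by the reads in all genes of that library and scaled to 1000000, and 11402 of 60279 genes in the count tables did so. Each of the 4 conditions of the series (untreated, palbociclib, indisulam and the combination) had 1 library. Per the library labels the combination was 0.5 µM palbociclib with 2 µM indisulam for 10 days, while the series text gives 2 µM, 3 µM and 16 h. The paper describes both treatments, in separate RNA-seq experiments. The library labels match its experiment on senescence signatures, and the series text matches its experiment on splicing errors. For the splicing experiment the paper names another aligner than the processing notes of these libraries do. This favours the labels, although the files alone do not settle which holds. The series text also speaks of technical duplicates, and the paper states duplicates for its RNA-seq on senescence signatures too. Whether a table pools duplicates is not given in the sources used here. All cultures, the untreated one included, were grown in medium with serum, insulin and hydrocortisone. With 1 library a side no p-value was computed, no difference had a replicate check, and all cells were of 1 line.

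Palbociclib blocks the kinases CDK4 and CDK6, which phosphorylate the retinoblastoma protein and so release E2F factors at the entry into S phase. Indisulam is a molecular glue that brings the splicing factor RBM39 to the ligase receptor DCAF15, where RBM39 is marked for degradation. Cells that leave the cell cycle for good, a state called senescence, are known to secrete cytokines, proteases and matrix proteins, many of them under control of the factors NF-kB and AP-1. The study asked whether both drugs together bring on this state, and the comparison with untreated cells covers all functions, those outside it included.

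The untreated library held 12555908 reads in genes and the combination library 14359529. VIM, CD44, EGFR, AXL and CAV1, genes expected in this line, were present in both, with 4598 and 2642 CPM for VIM, the vimentin gene. The hormone receptor genes ESR1 and PGR and the epithelial genes CDH1 and EPCAM stayed below 2 CPM in both, while ERBB2, which encodes HER2, had 143 CPM untreated and 113 in the combination. Of 11 genes that mark leukocytes, endothelium, red cells or liver, 8 had at most 17 reads in either library, and CD3E and HBA1 had none. The other markers were PTPRC (12.2 and 11.1 CPM), PECAM1 (15.2 and 20.4 CPM) and CD14 (9.24 and 4.60 CPM), and the part of other cells in the results was not tested.

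A gene was called when its CPM differed by at least 2-fold, after a pseudocount worth 1 read at the mean depth of the libraries was added, and when the 95% interval from counting error excluded an equal level. The combination library was higher in 1127 genes, 9.88% of those compared, and lower in 1016, 8.91%. Among the 10643 genes that reached 5 CPM in both libraries the counts were 785 higher (7.38%) and 793 lower (7.45%). The other 759 genes passed the level filter through 1 library, and 565 of them were called, which the filter favours. Which direction was more frequent depended on the scaling, with 962 higher and 1193 lower under TMM factors, 992 and 1146 under DESeq2 size factors and 1052 and 1084 under upper-quartile factors.

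The median log2 ratio over all compared genes was 0.04, and the central 90% of genes lay between -1.32 and 1.41. At 8-fold or more, 107 genes were higher and 37 lower. Just inside the level filter, from 5 to 5.5 CPM, 68 of 161 genes were called, and just outside it, from 4.5 to 5 CPM, 72 of 195 were 2-fold apart. Many genes lay near the fold threshold, with 457 called genes between 2 and 2.2-fold and 668 uncalled genes between 1.8 and 2-fold. Calls of ATM, CLU, HMGB2, TDO2, SLC7A5, PSMD14 and FABP4, all near 2-fold, were lost under at least 1 other scaling or pseudocount.

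**Figure D1:**
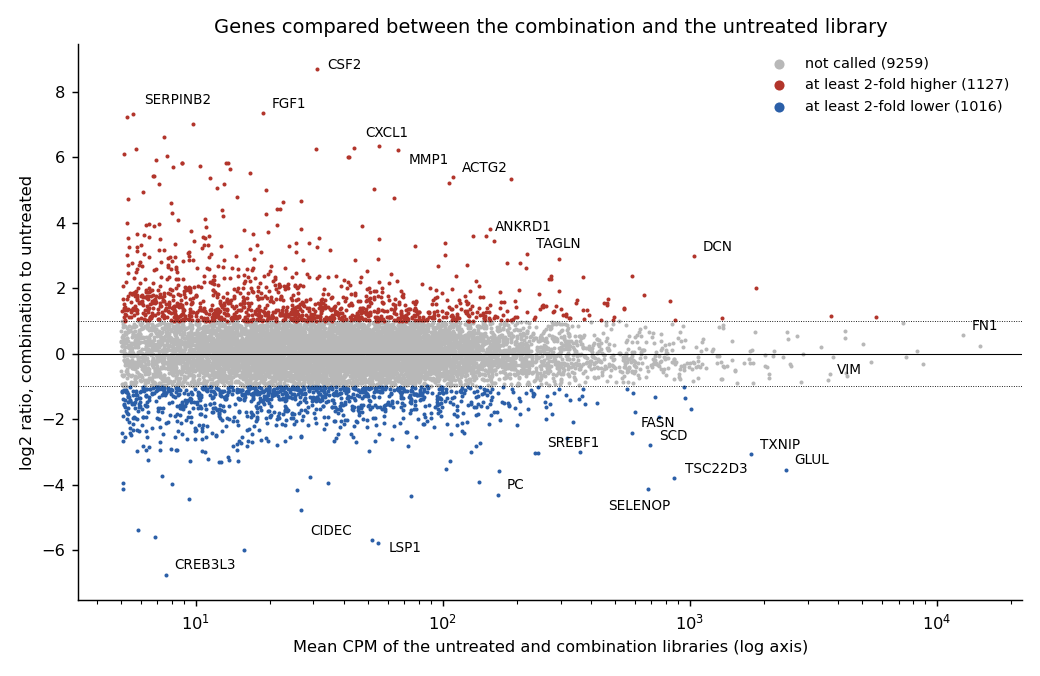
Log2 ratio of combination to untreated (y axis) against the mean CPM of both libraries (x axis, log scale), 1 point a gene, with dotted lines at 2-fold. Of the 11402 genes, 1127 are called higher (red) and 1016 lower (blue), and the genes with the highest ratios, such as CSF2 and FGF1, are below 100 CPM on average.

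The 15 genes with the highest ratios included growth factor, protease inhibitor, chemokine and protease genes. CSF2, the gene of the growth factor GM-CSF, had 1 read without treatment and 888 with both drugs, a ratio of 776 in CPM with a 95% counting interval from 139 to 30703. FGF1, a fibroblast growth factor gene (chromosome 5, 142592178 to 142698070, GRCh38), had 2 and 534 reads, a ratio of 233 with an interval from 64.3 to 1933. These intervals are wide because the untreated level rests on 1 or 2 reads. SERPINB2, which encodes an inhibitor of plasminogen activators, had 0 and 160 reads and was at least 46.6-fold higher, taking 3 reads as the floor of the untreated library, while its counting interval began at 37.5-fold. DIRC3, a long noncoding RNA gene (chromosome 2, 217284019 to 217756593), had 0 and 152 reads and was at least 44.3-fold higher by the same floor, with an interval from 35.6-fold.

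For another 5 of the 15 the untreated level also rested on 1 or 2 reads. PI3, an elastase inhibitor gene, had 1 read untreated and 279 in the combination. SLAMF7, which encodes a receptor best known from lymphocytes, had 1 read untreated and 213 in the combination. IDO1, whose enzyme starts the breakdown of tryptophan, had 1 read untreated and 164 in the combination. The serpin gene SERPINB7 and the cytokine gene IL24 were in the same range, with 146 and 217 reads in the combination library. SERPINB7 fell below the level filter under TMM and DESeq2 factors. The remaining 6 had more untreated reads. ACTBL2, an actin-like gene (chromosome 5, 57480018 to 57482811), went from 1.27 CPM untreated to 109.6 with both drugs, a log2 ratio of 6.35 (counting interval 5.72 to 7.24), and its reads can align to other actin genes. In the same way, with the log2 ratio alone in brackets from here on, ARNT2, a partner of bHLH-PAS transcription factors (chromosome 15, 80404350 to 80597933), had 0.717 CPM untreated and 60.4 in the combination (6.26). The other 4 were the collagenase gene MMP1 (6.22), the chemokine gene CXCL1 (6.29), the basal keratin gene KRT17 (6.02) and IGFBP5 (6.01), which encodes a binding protein of insulin-like growth factors. All 4 were between 1.04 and 1.67 CPM untreated and between 81.3 and 129.7 CPM in the combination.

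**Figure D2:**
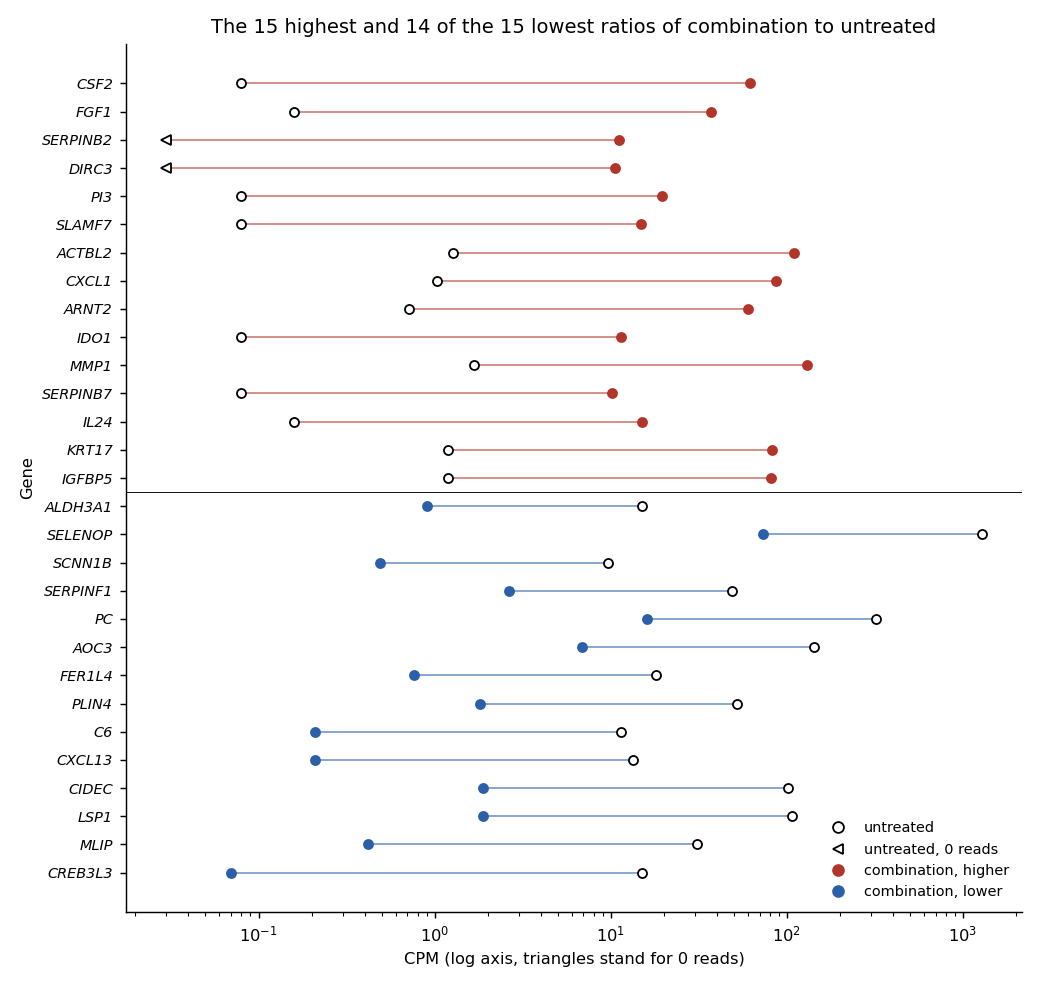
CPM on a log axis for the 15 highest (top) and 14 of the 15 lowest (bottom) ratios, with untreated as open and combination as filled symbols, 1 library each, and triangles for 0 reads. The genes at the top were under 2 CPM untreated, whereas SELENOP, PC, AOC3, LSP1 and CIDEC at the bottom were above 100 CPM untreated.

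The 15 genes with the lowest ratios included lipid droplet, metabolic and transport genes. CREB3L3, a transcription factor anchored in the endoplasmic reticulum (chromosome 19, 4153631 to 4173054), had 189 reads untreated and 1 in the combination, a 216-fold lower CPM with a counting interval from 38.3 to 8582. CIDEC, whose protein fuses lipid droplets (chromosome 3, 9866711 to 9880255), had 101 CPM untreated and 1.88 with both drugs, a log2 ratio of -5.70 (counting interval -6.36 to -5.20). PLIN4, a lipid droplet coat gene, had 51.8 CPM untreated and 1.81 in the combination (-4.78). Both droplet genes were thus near 2 CPM in the combination library. PC, which encodes pyruvate carboxylase and feeds carbon into the citrate cycle (chromosome 11, 66848417 to 66958386), had 319 CPM untreated and 16.0 in the combination (-4.31). SELENOP, the gene of the selenium transport protein (chromosome 5, 42799880 to 42887392), had 1277 CPM untreated and 73.6 in the combination (-4.12). AOC3, an amine oxidase gene, had 142 CPM untreated and 6.89 in the combination (-4.35). These 3 were still above 5 CPM with both drugs.

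The other lowest genes described had 3 to 38 reads in the combination library. LSP1, which encodes an actin-binding protein of leukocytes, had 108 CPM untreated and 1.88 in the combination (-5.78). MLIP, whose protein binds lamin A in muscle, had 31.1 CPM untreated and 0.418 in the combination (-5.99). SERPINF1, the gene of pigment epithelium-derived factor, had 48.9 CPM untreated and 2.65 in the combination (-4.17). FER1L4, a pseudogene, the sodium channel gene SCNN1B and ALDH3A1 had 7 to 13 reads left. C6, a complement gene, and the chemokine gene CXCL13 had 3 reads each, against 144 and 169 untreated.

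Ranked by the change in CPM, which favours long and abundant transcripts, other genes led. FN1, the gene of fibronectin, had 10312 CPM untreated and 15195 in the combination, the largest gain, although its log2 ratio was 0.56. FTH1, the ferritin heavy chain gene, had 3560.1 CPM untreated and 7796 in the combination (1.13). DCN, a proteoglycan gene, had 233 CPM untreated and 1841 in the combination (2.98). ENSG00000112096, a gene without a name in the annotation used, was also called (2.02). The 10 largest gains held THBS1, MYH9 and 3 mitochondrial transcripts, MT-CO1, MT-CO3 and MT-CYB, none of them called, with ratios of 0.24 to 0.94. GLUL, the gene of glutamine synthetase (chromosome 1, 182378098 to 182392206), had 4499 CPM untreated and 388 in the combination (-3.54). It was the largest loss. TXNIP, which encodes an inhibitor of thioredoxin and of glucose uptake, had 3147 CPM untreated and 377 in the combination (-3.06). TSC22D3, a glucocorticoid-induced gene, had 1618 CPM untreated and 116 in the combination (-3.80). With SELENOP these were the called genes among the 10 largest losses, and the others (GAPDH, VIM, MT-ND4, MT-ND5, EEF2 and COL6A3) had ratios of -0.87 to -0.30.

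Genes were then grouped by function into 47 lists, and the count of each list is read beside the 9.88% of all compared genes that were higher and the 8.91% that were lower. In 18 of them, such as the lists of mitosis, glycolysis and hypoxia, ER stress, MHC class I, respiratory chain, spliceosome, proteasome and zinc finger genes, neither share was above 1.5 times that of all genes, and nothing particular to them is read from their counts. With the filter of 5 CPM applied in both libraries, the members that were higher went from 6 to 4 among TGF-beta and BMP genes, from 4 to 2 in the IGF axis, from 6 to 4 among checkpoint genes, from 4 to 2 among p53 targets and from 9 to 6 among recombination genes.

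Cytokine and chemokine genes were the first group. Of 38 listed genes 20 were compared, and 16 were higher and 0 lower, beside 9.88% and 8.91% of all genes, with a median log2 ratio of 3.87. Many passed the level filter through the combination library alone. Of the 9 members at 5 CPM or more in both libraries, 5 were higher and 0 lower (median 1.0). CXCL13, which the list does not hold, was compared and was lower (-5.59). CXCL8, which attracts neutrophils (chromosome 4, 73740519 to 73743716), had 9.0 CPM untreated and 368 in the combination (5.34). CXCL3 had 1.27 CPM untreated and 17.9 in the combination (3.74). CXCL2 had 8.20 CPM untreated and 31.4 in the combination (1.93). CXCL1, CXCL2 and CXCL3 are alike in sequence, so their reads could be split between them. CXCL11, which attracts T cells, had 4 reads untreated and 200 in the combination.

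The interleukin genes IL6, IL1A and IL1B were at 1.12 to 1.83 CPM untreated and at 24.5 to 40.9 CPM in the combination. CCL5, a chemokine gene above the filter without treatment, had 47.8 CPM untreated and 225 in the combination (2.23). CSF3, which encodes the granulocyte growth factor, had 0.876 CPM untreated and 16.1 in the combination (4.09). LIF (3.56) and EBI3 (4.0) were below 1 CPM untreated and near 10 CPM with both drugs. IL32 had 32.2 CPM untreated and 82.0 in the combination (1.35). CLCF1, at 2-fold, had the smallest called ratio of the group (1.0). The members that were not called were the macrophage growth factor gene CSF1 and IL18, CXCL16 and IL15, with ratios of 0.08 to 0.42. Among the 18 members below the filter, CCL2 had 1 read untreated and 129 in the combination. TNFSF10, the gene of the death ligand TRAIL, went the other way, with 55 and 17 reads.

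NF-kB is a family of dimeric factors that act at inflammatory genes and are held back by inhibitors that they induce. Promoter sequences of chemokine and interleukin genes that were higher are shown because they carry a match to an NF-kB motif. The search used GGANTTTCC on either strand, which includes GGAATTTCC, in RefSeq windows of 300 bases (250 before and 50 after the start, GRCh38.p14). It was present in 7 of 12 compared cytokine genes with a window, but all 12 were higher, with or without it, and CXCL1, CXCL2 and CXCL3 are near copies. The motif was in 1.64% of all windows. Printed are the 140 bases before the start, 5′ to 3′ on the strand of the gene, with the match in capitals. The positions are chr4:73869253-73869392, plus strand for CXCL1, chr4:74099196-74099335, minus strand for CXCL2, chr4:74038690-74038829, minus strand for CXCL3, chr4:73740429-73740568, plus strand for CXCL8, chr4:76036071-76036210, minus strand for CXCL11 and chr7:22727060-22727199, plus strand for IL6.
CXCL1: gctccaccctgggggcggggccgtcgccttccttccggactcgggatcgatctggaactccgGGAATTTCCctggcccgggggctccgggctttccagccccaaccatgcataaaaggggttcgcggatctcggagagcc
CXCL2: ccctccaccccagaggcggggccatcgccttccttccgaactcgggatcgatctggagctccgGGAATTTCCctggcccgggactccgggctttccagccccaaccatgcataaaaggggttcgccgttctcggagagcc
CXCL3: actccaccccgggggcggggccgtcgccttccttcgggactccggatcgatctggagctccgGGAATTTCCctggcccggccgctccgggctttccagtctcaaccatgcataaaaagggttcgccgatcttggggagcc
CXCL8: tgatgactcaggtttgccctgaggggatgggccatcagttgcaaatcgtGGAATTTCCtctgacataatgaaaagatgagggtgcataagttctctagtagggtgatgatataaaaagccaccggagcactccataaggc
CXCL11: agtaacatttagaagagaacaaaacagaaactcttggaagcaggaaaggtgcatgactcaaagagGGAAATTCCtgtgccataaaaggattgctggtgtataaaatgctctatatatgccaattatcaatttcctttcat
IL6: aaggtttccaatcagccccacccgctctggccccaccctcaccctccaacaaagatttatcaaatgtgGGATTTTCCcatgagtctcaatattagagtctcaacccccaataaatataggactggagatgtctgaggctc

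The match began 72 to 91 bases before the start in these 6 genes and 98 bases before it in IL32, which was also higher and is not printed, and the sequences of CXCL1, CXCL2 and CXCL3 are alike around it. Over all compared genes with a window, the motif was in 3.17% of the 821 that were higher, 1.58% of the 7583 not called and 1.29% of the 773 that were lower. The AP-1 motif TGANTCA was in 8.65%, 4.19% and 3.88% of them, against 7.76% of all windows. A match of letters is a description and not a site of binding.

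Of the 17 genes of NF-kB subunits and feedback inhibitors, 5 were higher and 0 lower, with a median of 0.67, and 8 were higher after the median ratio of genes of similar GC content was subtracted, an alternative chosen after seeing the data. The called genes were inhibitors and adaptors. TNFAIP3, the gene of the deubiquitinase A20, had 22.7 CPM untreated and 182 in the combination (3.0). TRAF1, a receptor adaptor gene, had 13.1 CPM untreated and 96.9 in the combination (2.88). BIRC3, an inhibitor of apoptosis gene, had 36.4 CPM untreated and 189 in the combination (2.38). NFKBIZ (1.42) and NFKBIB (1.2), which encode IkB proteins, were also higher. The subunit genes RELA, NFKB1, REL, RELB and NFKB2 were not called, with ratios of -0.13 to 0.95, and neither was the inhibitor gene NFKBIA (0.30). The motif was in 5 of the 14 windows of this list, those of TNFAIP3 and NFKBIZ, which were higher, and of NFKBIA, REL and NFKB1, which were not called.

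Immediate early genes, which growth signals induce within minutes, were in part lower. Of 12 AP-1 and C/EBP genes compared, 4 were lower and 3 higher (median -0.21). FOS had 190.3 CPM untreated and 16.4 in the combination (-3.53). FOSB had 29.5 CPM untreated and 4.46 in the combination (-2.71). JUNB (-1.18) and CEBPD (-1.18) were lower by about 2-fold. Members of the same families that were higher were ATF3 (2.08), FOSL1 (1.62) and MAFF (1.38), while JUN was not called (-0.24). Of 19 RAS-MAPK feedback genes compared, 2 were higher and 3 lower (median 0.49), which is 10.5% and 15.8%, beside 9.88% and 8.91% of all genes. DUSP6 (1.38) and DUSP5 (1.11), whose phosphatases switch off ERK, were higher. EGR1, an early response factor, had 247 CPM untreated and 37.0 in the combination (-2.73). IER2 (-1.14) and SPRY1 (-1.27) were also lower.

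Of 7 genes of EGF family ligands and receptors compared, 5 were higher, all of them ligands, and 0 lower. EREG, which encodes epiregulin, had 20. CPM untreated and 90.9 in the combination (2.18). AREG, which encodes amphiregulin, had 2.87 CPM untreated and 14.1 in the combination (2.27). NRG1, a ligand of other receptors of the family, had 13.5 CPM untreated and 39.2 in the combination (1.53). EGF (1.72) and HBEGF (1.41) were higher too, and AREG and EGF passed the filter through the combination library. Both compared receptor genes stayed within 2-fold, EGFR at -0.27 and ERBB2 at -0.33.

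Of 30 genes of matrix proteases and their inhibitors 23 were compared, and 13 were higher and 0 lower (median 1.09). At 5 CPM or more in both libraries 7 of 17 were higher. MMP3, the stromelysin gene, had 0.398 CPM untreated and 26.7 in the combination (5.83). MMP24, a membrane-type protease gene, had 0.637 CPM untreated and 23.7 in the combination (5.07). Both ranked below the inhibitor genes SERPINB2 and PI3 and below MMP1, which had the highest ratios of the group. PLAT, which encodes tissue plasminogen activator, had 170.2 CPM untreated and 434 in the combination (1.35). PLAUR, the urokinase receptor gene, had 29.2 CPM untreated and 70.0 in the combination (1.26). CTSS, a lysosomal protease gene, had 9.64 CPM untreated and 41.1 in the combination (2.08). MMP2 and MMP14, which activate other proteases at the cell surface, were not called (-0.74 and -0.55). Below the level filter, MMP12 had 0 reads untreated and 103 in the combination, and MMP13 had 0 and 62.

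Of 31 collagen and matrix protein genes compared, 10 were higher and 1 lower (median 0.54). LUM, a small proteoglycan gene, had 6 reads untreated and 390 in the combination. VCAN, which encodes the large proteoglycan versican, had 46.8 CPM untreated and 317 in the combination (2.76). TNC, the tenascin gene, had 189 CPM untreated and 981 in the combination (2.38). POSTN, the periostin gene, was close to VCAN in ratio (2.72). The basement membrane collagen genes COL4A1 and COL4A2, neighbours that share a promoter region, were both higher (1.31 and 1.03). The fibrillar collagen genes COL1A1, COL1A2 and COL3A1 were not called, with ratios of -0.63 to 0.09. BGN, the biglycan gene, had 10.8 CPM untreated and 3.34 in the combination (-1.66). It was the member that was lower.

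Adhesion receptor and laminin genes were called in both directions, with 5 higher and 5 lower of 23 (median 0.11), and 3 higher after the subtraction for GC content. ITGB4, which with the product of ITGA6 binds laminin in hemidesmosomes (chromosome 17, 75721328 to 75757818), had 422 CPM untreated and 51.2 in the combination (-3.04). ITGA10, a collagen receptor subunit gene, had 232 CPM untreated and 28.8 in the combination (-3.0). ITGA6 itself was not called (0.50). Integrin genes that were higher were ITGAV (1.47), ITGB1 (1.10) and ITGA11 (1.03). Laminin genes differed as well. LAMB3 had 191 CPM untreated and 443 in the combination (1.22). LAMA3, the gene of a chain of the same trimer, was not called (-0.22), and LAMB1, LAMA4 and LAMA5 were lower, with ratios of -1.32 to -1.08.

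**Figure D3:**
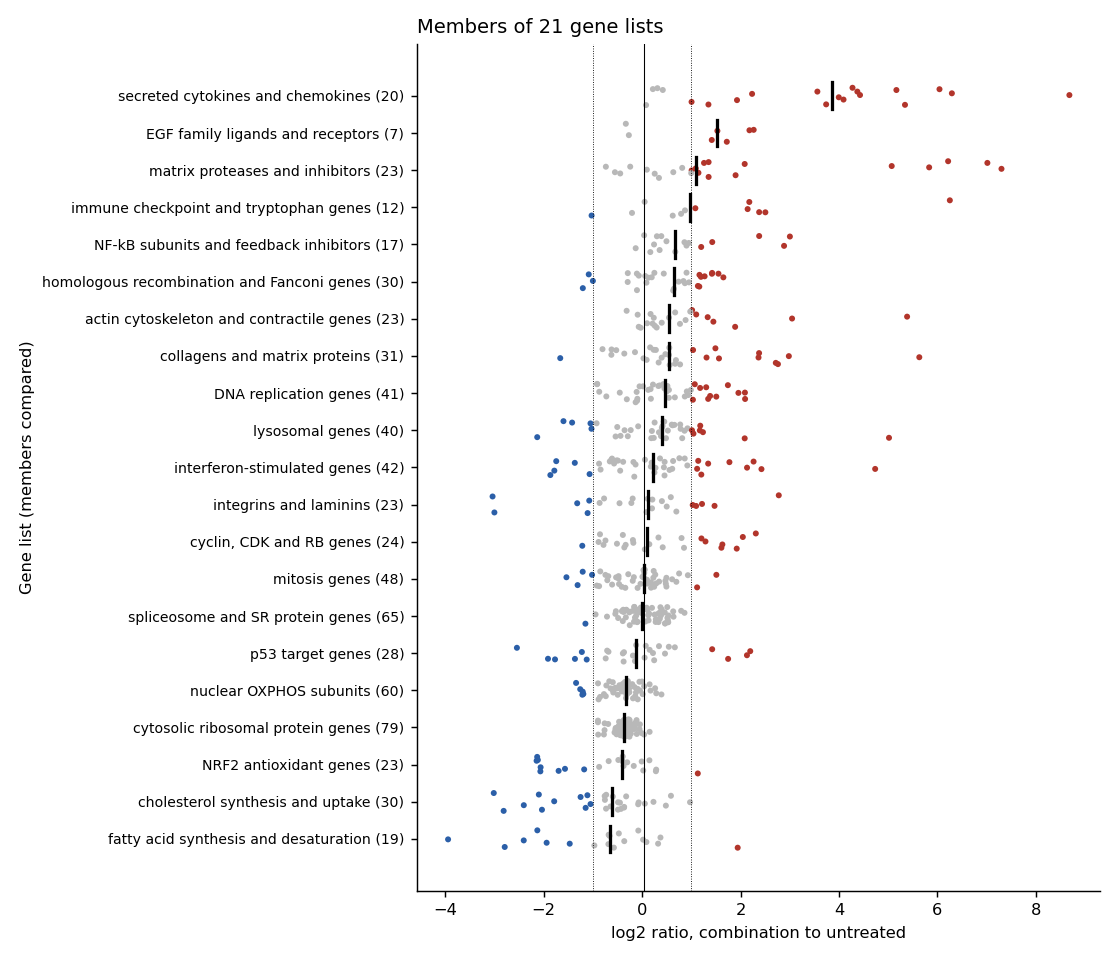
Log2 ratio of combination to untreated (x axis) for each compared member of 21 gene lists, with the number compared in brackets, red for called higher, blue for called lower and grey for neither. Black bars are list medians, which run from 3.87 for cytokines and chemokines (1.0 for its members at 5 CPM or more in both libraries) to -0.66 for fatty acid synthesis, beside 0.04 for all genes (solid line).

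Genes of epithelial structure and of the mesenchymal state were compared because SUM159 is a mesenchymal line. Of 14 keratin and junction genes compared, 5 were higher and 0 lower (median 0.74), and 2 of the 11 at 5 CPM or more in both libraries. CLDN1, a tight junction gene, had 8.92 CPM untreated and 102 in the combination (3.50). KRT34, a keratin gene of hair, had 8 reads untreated and 469 in the combination. KRT17, KRT81 (2.59) and the desmosome gene DSP (1.25) were the others. KRT7, KRT8 and KRT18, keratin genes of simple epithelia, were not called, with ratios of 0.03 to 0.62.

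Of 14 mesenchymal factor genes, 3 were lower and 1 higher (median 0.06). SNAI1, a transcription factor that shuts off epithelial genes, had 20.6 CPM untreated and 3.62 in the combination (-2.49). TWIST1, another such factor, had 31.5 CPM untreated and 13.3 in the combination (-1.24). S100A4, a calcium-binding protein gene, had 396 CPM untreated and 171 in the combination (-1.21). The N-cadherin gene CDH2 was higher (1.13), so that the markers of this state did not share a direction.

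Of 23 cytoskeletal and contractile genes compared, 7 were higher and 0 lower (median 0.55), and 7 of those higher had 5 CPM or more in both libraries. ACTG2, the enteric smooth muscle actin gene (chromosome 2, 73892314 to 73919865), had 5.10 CPM untreated and 216 in the combination (5.38). TAGLN, which encodes an actin-binding protein of smooth muscle, had 47.3 CPM untreated and 391 in the combination (3.05). MYL9, a myosin light chain gene, had 72.3 CPM untreated and 268 in the combination (1.89). MYLK, the gene of its kinase (1.45), CALD1 (1.33), ACTA2 (1.10) and TPM2 (1.02) were higher as well. ACTB and ACTG1, the actin genes used by all cells, were not called (0.29 and -0.09).

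Of 17 targets of the YAP and TEAD factors, 3 were higher and 1 lower (median 0.19), and 5 were higher after the subtraction for GC content. ANKRD1, a classic target (chromosome 10, 90912096 to 90921087), had 23. CPM untreated and 277 in the combination (3.58). F3, the tissue factor gene, had 293 CPM untreated and 1015 in the combination (1.79). ARHGEF17, an exchange factor gene, was lower (-1.52). Of 25 TGF-beta and BMP genes compared, 6 were higher and 1 lower (median 0.50). INHBA, which encodes the subunit of activin A, had 5 reads untreated and 377 in the combination. TGFBR1, a receptor gene, had 14.3 CPM untreated and 140.4 in the combination (3.29). NOG, a BMP antagonist gene, had 3.90 CPM untreated and 16.5 in the combination (2.06). The ligand gene TGFB2 was higher (1.38), whereas TGFB1 (-0.84) and the receptor gene TGFBR2 (-0.18) were not called and the co-receptor gene TGFBR3 was lower (-1.11).

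In the insulin-like growth factor axis 4 genes were higher and 1 lower of 14 (median 0.30). The binding protein genes IGFBP3 (2.45) and IGFBP7 (1.74) were higher beside IGFBP5, whereas IGFBP4 was not called (-0.61). IGF2, a ligand gene, had 20.4 CPM untreated and 2.16 in the combination (-3.20). The receptor gene IGF1R was not called (0.45).

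Interferon-stimulated genes, an antiviral set, were called in both directions. Of 42 compared, 9 were higher and 5 lower, with a median of 0.22. RIGI, the gene of a sensor of viral RNA, had 8.84 CPM untreated and 47.8 in the combination (2.42). ISG15, a ubiquitin-like modifier gene, had 13.7 CPM untreated and 66.1 in the combination (2.26). IFIT3 (2.13) and IFIT2 (1.77), which act on viral RNA, were also higher, and RSAD2, the viperin gene, had 4 and 148 reads. IFITM2, which blocks viral entry, had 215 CPM untreated and 58.8 in the combination (-1.87). IFI44L had 72.9 CPM untreated and 21.1 in the combination (-1.78). IFI35 (-1.75) and the helicase gene DHX58 (-1.37) were lower too. The factors themselves differed, with IRF1 higher (1.34) and STAT2 lower (-1.07). MX1 (-0.39) and IFI6 (-0.13), often used as markers of the response, were not called.

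A core of the interferon response element, AAANNGAAA on either strand, was present in 25 of the 32 compared members with a promoter window and in 10.6% of all windows. It was in the window of 4 members that were higher and of 1 that was lower. This pair is shown because ISG15 was higher and IFI44L lower although both windows hold the letters (capitals, 140 bases before the RefSeq start, GRCh38.p14, chr1:1013357-1013496, plus strand and chr1:78620308-78620447, plus strand).
ISG15: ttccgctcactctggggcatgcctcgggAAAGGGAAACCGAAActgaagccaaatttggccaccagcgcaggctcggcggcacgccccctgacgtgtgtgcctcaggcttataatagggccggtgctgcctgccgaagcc
IFI44L: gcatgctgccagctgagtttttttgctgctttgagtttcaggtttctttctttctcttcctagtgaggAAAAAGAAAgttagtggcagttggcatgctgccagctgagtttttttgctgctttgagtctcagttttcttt

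The ISG15 stretch holds 2 overlapping matches, which begin 112 and 106 bases before the start, and the IFI44L stretch 1 match. Of 18 genes of MHC class I presentation (median -0.10), 1 was higher and 1 lower. TAP2, a peptide transporter gene, had 17.5 CPM untreated and 49.2 in the combination (1.485). Of 12 checkpoint and tryptophan genes, 6 were higher and 1 lower (median 0.98). CD274, which encodes the PD-1 ligand PD-L1, had 16.6 CPM untreated and 75.6 in the combination (2.18). PDCD1LG2, the gene of the other PD-1 ligand, had 11.9 CPM untreated and 62.4 in the combination (2.38). LGALS9 (2.5), TNFRSF9 (2.14) and PVR (1.08) were higher beside IDO1. TDO2, whose enzyme does the same step as that of IDO1, had 14.4 CPM untreated and 7.03 in the combination (-1.03). Of 11 complement genes (median 0.35), 4 were higher and 2 lower, and 2 higher after the subtraction for GC content, and the median was -0.18 with a filter of 1 CPM. C3, the central complement gene, had 301 CPM untreated and 779.9 in the combination (1.37). C1S (1.10) and the inhibitor gene CD55 (1.24) were higher, and C5 (-2.08) and CLU (-1.0) lower. C6, which the list does not hold, was also lower (-5.37).

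Genes of lipid synthesis were more often lower than higher. SREBP proteins are membrane-bound factors released when sterols are short, and they switch on the genes of cholesterol and fatty acid synthesis, while INSIG proteins hold them back. Of 30 genes of cholesterol synthesis and uptake, 10 were lower and 0 higher, with a median of -0.62 and 25 of 30 ratios below 0. SREBF1, which encodes the SREBP that acts mainly on fatty acid genes (chromosome 17, 17810399 to 17837002), had 432 CPM untreated and 53.4 in the combination (-3.02). SREBF2, which encodes the SREBP that acts mainly on sterol genes (chromosome 22, 41833105 to 41907306), had 274 CPM untreated and 66.9 in the combination (-2.04). Both SREBP genes were thus more than 4-fold lower. INSIG1 had 238 CPM untreated and 33.8 in the combination (-2.81). The enzyme genes were uneven. HMGCS1 and SQLE were not called, with ratios of -0.33 to -0.07, while DHCR7, MSMO1, MVK, ACAT2 and TM7SF2 were lower, with -2.41 to -1.05. The sterol exporter gene ABCA1 had the highest ratio of the list and was not called (0.97).

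SREBF2 is shown because its own window holds the sterol element TCACCCCAC (capitals, 140 bases before the RefSeq start, GRCh38.p14, chr22:41832965-41833104, plus strand).
SREBF2: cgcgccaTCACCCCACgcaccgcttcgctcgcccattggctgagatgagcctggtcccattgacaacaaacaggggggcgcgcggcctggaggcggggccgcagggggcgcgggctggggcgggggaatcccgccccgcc
These letters, on either strand, were in 0.425% of all windows, in 9 of 773 genes that were lower, in 0 of 821 that were higher and in 22 of 7583 not called. No other compared gene of the cholesterol list with a window held them.

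Of 19 genes of fatty acid synthesis and desaturation, 6 were lower and 1 higher (median -0.66). FASN, the fatty acid synthase gene (chromosome 17, 82078338 to 82098294), had 982 CPM untreated and 185 in the combination (-2.41). MLXIPL, the gene of the glucose-sensing factor ChREBP, had 64.3 CPM untreated and 4.11 in the combination (-3.94). ACSS2, whose enzyme makes acetyl-CoA from acetate, had 137 CPM untreated and 31.2 in the combination (-2.13). ACLY, whose enzyme makes it from citrate, was not called (-0.36). The acetyl-CoA carboxylase genes ACACA (-1.47) and ACACB (-1.94) and the desaturase gene SCD (-2.79) were lower. SCD5, another desaturase gene, was the member that was higher (3.27 and 12.7 CPM).

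Of 17 lipid droplet and triglyceride genes, 5 were lower and 3 higher (median -0.20), and of the 10 at 5 CPM or more in both libraries 2 were lower and 0 higher. PPARG, the gene of the adipogenic nuclear receptor, had 84.1 CPM untreated and 27.2 in the combination (-1.62). CD36 (-1.47), which takes up fatty acids, and GPAM (-1.23), which starts triglyceride synthesis, were lower beside CIDEC and PLIN4. PLIN1, the main droplet coat gene of fat cells, was below the filter with 84 reads untreated and 1 in the combination. DGAT2 (1.71), ANGPTL4 (2.33) and FABP4 (1.09) were higher, each below 5 CPM untreated.

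Of 23 targets and regulators of the antioxidant factor NRF2, 8 were lower and 1 higher (median -0.41). HMOX1, the heme oxygenase gene, had 251 CPM untreated and 56.6 in the combination (-2.15). TKT, of the pentose phosphate pathway, had 1546 CPM untreated and 477 in the combination (-1.70). AKR1C1, AKR1C2, AKR1C3 and AKR1B10, keto reductase genes, were lower with ratios of -2.13 to -1.57, and reads of the AKR1C genes can align to each other. FTH1 was the member that was higher. GCLC (0.29), GCLM (0.28) and TXNRD1 (-0.48), classic targets, were not called.

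Of 12 aldehyde dehydrogenase genes 6 were lower and 2 higher (median -0.80). Beside ALDH3A1 the lower genes were ALDH6A1, ALDH3B1, ALDH3A2, ALDH9A1 and ALDH7A1, with ratios of -1.51 to -1.37. ALDH1A3, whose enzyme makes retinoic acid, had 4.94 CPM untreated and 58.3 in the combination (3.54). ALDH1B1, a mitochondrial member, had 25.1 CPM untreated and 84.6 in the combination (1.75). Of 3 metallothionein genes compared none was called, and their median was -0.14, with MT2A at 0.10 and MT1X at -0.65.

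Of 60 nuclear genes for subunits of the respiratory chain, 5 were lower and 0 higher, and 53 had a ratio below 0 (median -0.33). The share lower was 8.33%, beside 8.91% of all genes. CYC1, the gene of cytochrome c1, had 149 CPM untreated and 58.7 in the combination (-1.34). UQCRC1, SDHA, NDUFS1 and NDUFB8, of complexes I, II and III, were also lower, with ratios of -1.26 to -1.2. Of the 15 mitochondrially encoded genes 0 were called, with ratios from -0.87 for MT-ND5 to 0.94 for MT-CO3 (median 0.10).

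Of 35 glycolysis and hypoxia genes, 5 were higher and 3 lower (median 0.10). PFKFB4, a regulator of glycolysis, had 15.2 CPM untreated and 77.8 in the combination (2.35). VEGFA, an angiogenic factor gene, had 164 CPM untreated and 397 in the combination (1.28). HK2, a hexokinase gene, had 227 CPM untreated and 90.8 in the combination (-1.32). Genes of sugar use thus lay on both sides. ADM (1.61), EGLN3 (1.30) and EPAS1 (1.29) were higher, and CA9 (-2.93) and ALDOC (-2.53) lower, all of them known to respond to low oxygen or to act in that response. The hypoxia factor gene HIF1A was not called (0.10).

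Cell cycle genes were set apart by phase. Of 41 DNA replication genes, 11 were higher and 0 lower (median 0.47). GINS1, part of the replicative helicase, had 7.88 CPM untreated and 33.8 in the combination (2.09). FEN1, a flap endonuclease gene, had 16.0 CPM untreated and 68.3 in the combination (2.09). MCM4, a helicase subunit gene, had 47.2 CPM untreated and 134 in the combination (1.51). MCM10 (1.96) and the origin recognition gene ORC6 (1.74) were also higher. The nucleotide synthesis genes TYMS (-0.92) and TK1 (-0.73) and the licensing factor gene CDT1 (-0.91) were not called. Of 48 mitosis genes 2 were higher and 4 lower. AURKB, a mitotic kinase gene, had 15. CPM untreated and 5.99 in the combination (-1.31). BUB1, a kinase gene of the spindle checkpoint, had 54.2 CPM untreated and 23.4 in the combination (-1.21). The condensin gene NCAPD2 was lower (-1.54), while KIF23 (1.51) and ANLN (1.12), which act in cytokinesis, were higher. The median of this list was 0.03, and -0.06 under TMM factors.

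Of 30 homologous recombination and Fanconi genes, 9 were higher and 3 lower (median 0.64), but 5 and 1 after the subtraction for GC content, and their median was -0.003 among genes of at least 20 CPM. XRCC2 (1.65), XRCC3 (1.55) and BRIP1 (1.42) were higher, and FANCE (-1.21), FANCG (-1.09) and the damage kinase gene ATM (-1.0) lower. Of 24 cyclin, CDK and RB genes, 7 were higher and 1 lower (median 0.10). E2F7, an E2F that represses, had 5.81 CPM untreated and 29.1 in the combination (2.31). CCND1, the cyclin D1 gene, had 171 CPM untreated and 529.8 in the combination (1.63). CDK6, a target of palbociclib, had 28.2 CPM untreated and 107 in the combination (1.92). E2F1 (1.61), E2F3 (1.2), CCNE1 (2.05) and the phosphatase gene CDC25A (1.29), which act at the entry into S phase, were higher as well. CDK4 (-0.19) and CDK2 (-0.18) were not called, and CCNH, the cyclin gene of the CDK-activating kinase, was lower (-1.22). RBM39 and DCAF15, on which indisulam acts, were not called (-0.17 and -0.10). These are RNA ratios and do not show protein levels, and the paper reports loss of RBM39 protein with indisulam and with the combination.

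Of 28 targets of p53, 4 were higher and 6 lower (median -0.13). AEN, a nuclease gene, had 4.06 CPM untreated and 18.9 in the combination (2.2). GDF15, a stress cytokine gene, had 8.04 CPM untreated and 35.4 in the combination (2.13). TIGAR (1.75) and PMAIP1 (1.42) were also higher. FDXR, the ferredoxin reductase gene, had 26.4 CPM untreated and 4.46 in the combination (-2.55). DDB2, a repair gene, had 25.6 CPM untreated and 6.76 in the combination (-1.91). BTG2, TP63, SESN1 and BBC3 were lower as well, with ratios of -1.77 to -1.13, and MDM2 was not called (0.46). Of 13 genes of the BCL2 family (median -0.06), PMAIP1 was the one that was higher and BBC3 the one that was lower. Of 16 lamin and HMG genes (median -0.15), HMGA2 was higher (1.31) and HMGB2 lower (-1.0). Of 87 histone genes, most of which make RNA without a poly(A) tail, 14 were compared (median 0.09), and H2BC21 was higher (1.14) and the linker histone gene H1-10 lower (-1.28).

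In the lists of RNA processing and translation neither share called was above 1.5 times that of all genes (9.88% higher and 8.91% lower). Nothing particular to them is read from their counts. Of 65 spliceosome and SR protein genes (median -0.00) 1 was lower and 0 higher. SNRPA, of the U1 particle, had 112 CPM untreated and 50.2 in the combination (-1.15). Its call was lost after the subtraction for GC content (-0.95). Of 15 nonsense-mediated decay genes none was called, from -0.55 for CASC3 to 0.60 for SMG1 (median 0.07). Of 18 snoRNA host genes (median 0.09) SNHG3 was lower (-1.21). Of 79 cytosolic ribosomal protein genes none was called, but 77 had a ratio below 0, from -0.90 for RPL3 to 0.15 for RPS10 (median -0.36). Of 36 ribosome biogenesis genes (median 0.43) UTP15 (1.65), RRS1 (1.59) and UTP20 (1.27) were higher and the fibrillarin gene FBL lower (-1.18). Of 20 aminoacyl-tRNA synthetase genes (median -0.16) QARS1 was lower (-1.35).

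Of 35 genes of ER stress and the ATF4 response (median -0.04), 2 were higher and 2 lower. SLC3A2, an amino acid transporter gene, had 121 CPM untreated and 616 in the combination (2.35). SLC7A5, the gene of its partner, was higher too (1.07). ASNS, the asparagine synthetase gene, had 140.3 CPM untreated and 54.6 in the combination (-1.36). DDIT4, which encodes an inhibitor of mTOR, had 435 CPM untreated and 121 in the combination (-1.84). Of 18 heat shock genes (median 0.35) HSPH1 (1.65), DNAJB4 (1.32) and HSPA2 (1.29) were higher. Of 31 proteasome genes (median 0.26) PSMA2, PSMD1 and PSMD14 were higher, with ratios of 1.05 to 1.22, and 1 of the list after the subtraction for GC content.

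Of 40 lysosomal genes, 7 were higher and 5 lower (median 0.41), which is 17.5% and 12.5%, beside 9.88% and 8.91% of all genes. GUSB, often used as a reference gene, had 64.7 CPM untreated and 14.7 in the combination (-2.13). GAA, the acid glucosidase gene, had 229 CPM untreated and 85.4 in the combination (-1.42). GPNMB, a lysosomal membrane glycoprotein gene, had the highest ratio of the list (5.02). Of 147 zinc finger genes of chromosome 19 compared, 21 were higher and 3 lower (median 0.32), with ZNF320 the highest (2.83). Of the 125 at 5 CPM or more in both libraries 11 were higher and 2 lower, beside 7.38% and 7.45% of all such genes. After the subtraction for GC content 12 of them were higher and the median was 0.14. Of 2170 LINC noncoding RNA genes 71 were compared (median 0.39), of which 14 were higher and 7 lower. Most of those higher passed the filter through the combination library, and of 49 at 5 CPM or more in both libraries 4 were higher and 3 lower. LINC00520 had the highest ratio, with 2 reads untreated and 197 in the combination, and LINC02997 the lowest (-2.55).

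The single-drug libraries are given beside the combination as levels only, since their comparisons with untreated cells share the untreated library. CSF2 had 3.70 CPM with palbociclib, 16.4 with indisulam and 61.8 with both. MMP1 had 1.26, 41.8 and 129.7 CPM in the same order. In both genes indisulam was the higher of the single drugs. TAGLN had 167 CPM with palbociclib, 71.3 with indisulam and 391 with both, so palbociclib was the higher there. IL24 was highest with indisulam alone, at 48.2 CPM against 15.1 with both drugs and 0.0788 with palbociclib. Among genes that were lower, SELENOP had 1206 CPM with palbociclib, 109 with indisulam and 73.6 with both. GLUL had 1209, 687 and 388 CPM and was below its untreated level in all 3. SREBF1 (167, 203 and 53.4 CPM) and FASN (285, 303 and 185 CPM) were lowest in the combination.

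**Figure D4:**
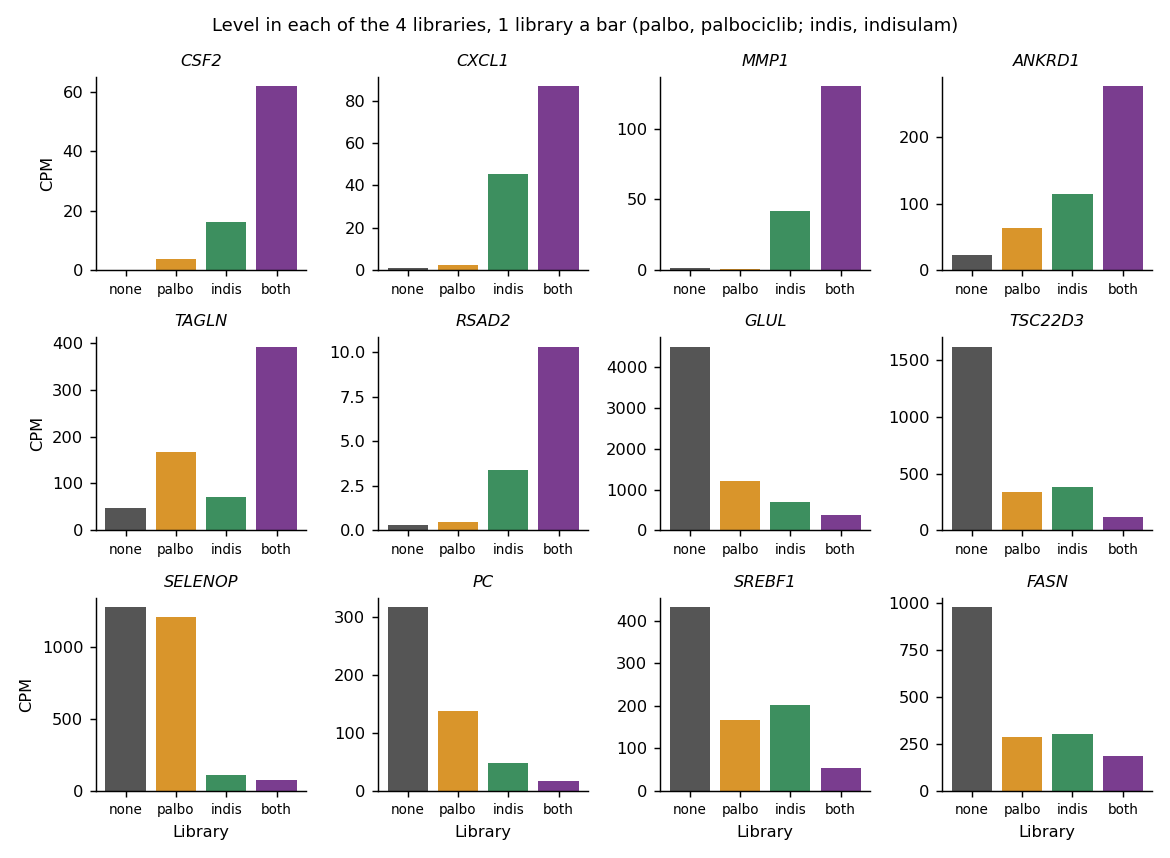
CPM of 12 genes in each library (none, untreated; palbo, palbociclib; indis, indisulam; both, combination), 1 library a bar and no error bars because there are no replicates. In CSF2, CXCL1, MMP1, ANKRD1, TAGLN and RSAD2 the combination bar is the tallest, and in GLUL, TSC22D3, SELENOP, PC, SREBF1 and FASN it is the shortest. These genes were picked by hand, and other called genes differ. C3 had 1433 CPM with palbociclib and 780 with both drugs, and BIRC3 had 221 CPM with indisulam and 189 with both.

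The called genes were also described by features that the comparison did not use. Protein-coding genes were put into 5 classes of equal size by the GC content of their canonical transcript. In the class with the lowest GC content 10.6% of genes were higher and 3.91% lower, and in the class with the highest 5.52% and 16.7%. The median log2 ratio was smaller at every step, from 0.23 to -0.25. By length of the gene, 13.2% of the class of longest genes were higher and 6.58% lower, against 8.83% and 11.7% of the class of shortest. Chromosome 17 had a median of -0.18, with 15.3% of its genes lower, and chromosome 13 a median of 0.28, with 13.1% higher. Of 335 long noncoding RNA genes 16.1% were higher and 14.6% lower. Calls also varied with level, and in the fifth of protein-coding genes lowest in mean CPM 17.2% were higher and 13.0% lower. At a mean of at least 20 CPM, 14.3% of 77 long noncoding RNA genes were higher and 6.49% lower. The shares of protein-coding genes at that level were 7.14% and 7.27%. After the subtraction for GC content 1015 genes were higher and 982 lower, and the part of base composition in the results was not tested further.

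**Figure D5:**
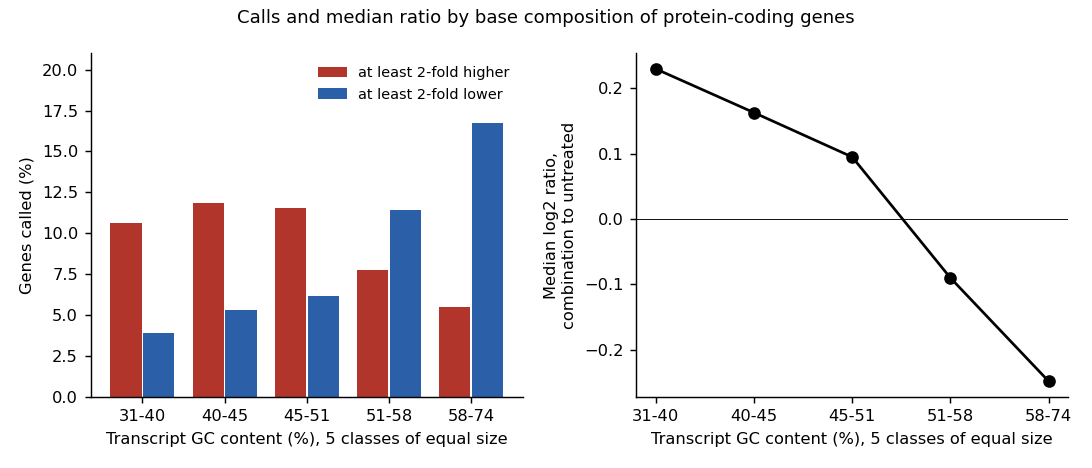
Left, share of protein-coding genes called higher (red) or lower (blue) in 5 classes of transcript GC content (x axis, percent); right, the median log2 ratio in the same classes, with 2173 to 2174 genes a class. The share lower grows from 3.91% to 16.7% as GC content grows, and the median passes from above to below 0.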

How the data were processed

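RNA-seq of strand-specific poly(A) libraries gave 1 table per library of counts of reads per gene, which the authors deposited without normalization. The submitters' processing notes name TopHat2 2.1, HTSeq and GRCh38, with no role, and the strand setting of the counting and the annotation release are not given in the sources used here. Rows with an Ensembl gene identifier were kept, and the tallies of reads in no gene (0.615% of tallied reads untreated and 0.671% in the combination), in more than 1 gene (2.63% and 2.41%) or at more than 1 place (6.46% and 6.53%) were left out of library totals. Counts were divided by the library total to give CPM, genes whose mean over the untreated and the combination library reached 5 CPM were kept, and a pseudocount worth 1 read at the mean depth (0.0710 CPM) was added before the log2 ratio. A gene was called at 2-fold or more when the 95% exact binomial interval of its counts excluded an equal level. Intervals and the floor of 3 reads cover counting error only. With 1 library a condition no test and no direct estimate of spread between cultures was possible. An upper bound for a typical gene came from the spread (scaled median absolute deviation) over genes of log2 combination minus palbociclib minus indisulam plus untreated. That spread also holds any interaction of the drugs. As a standard deviation of 1 log2 ratio the bound was 0.37 at 5 to 20 CPM and 0.27 from 100 CPM, and single genes can exceed it. The median half-width of the 95% counting interval was 0.35 and 0.087 there. A 95% half-width is wider than 1 standard deviation, so these values are not on the same scale as the bound.

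Gene names, biotypes, positions and transcript GC content came from GENCODE 44, and promoter windows from RefSeq (GRCh38.p14), available for 9177 of the 11402 genes. The text names the 15 highest and 15 lowest ratios among called genes, the 10 largest gains and losses in CPM, up to 3 called members a direction of each gene list, the genes of the proteins the drugs act on and cell type markers. Some genes that this rule names are not reported here, while list counts include them. Further members of the lists were named after their values were seen. The comparison, its 43 lists and 4 sets by symbol were chosen with earlier results of these data known, and 4 more lists after seeing the values. Python 3.11.15 (numpy 2.4.6, pandas 2.3.3, scipy 1.17.1, matplotlib 3.10.9) and R 4.3.3 with edgeR 4.0.16 for TMM and upper-quartile factors and DESeq2 1.42.0 for size factors were used. Alternatives were these factors, totals without mitochondrial genes, a pseudocount of 10 reads, other filters (none, 1 and 20 CPM), other folds (1.5 and 4) and an interval wholly beyond 2-fold, and, added after seeing the data, a subtraction of the median ratio of genes of similar GC content in 20 bins and a filter of 5 CPM in both libraries.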

Additional observations from a re-analysis of the deposited data

Results flagged for a closer look

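The tables also tally reads that the comparison did not use, and 2 of these tallies were above the untreated library. Reads in no gene were 0.671% of tallied reads in the combination library (95% Wilson interval 0.667 to 0.675) and 0.615% in the untreated one (0.611 to 0.619). They were 0.663% with palbociclib and 0.694% with indisulam, so the combination lay between the single drugs. Reads at more than 1 place were 6.53% in the combination (6.51 to 6.54) and 6.46% untreated (6.44 to 6.47), against 6.84% with palbociclib and 6.53% with indisulam. The intervals cover counting error only, and no replicate gives the spread between libraries.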

How the results depend on the processing

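No paired analysis was possible because each condition had 1 library, and for the same reason none could be left out. Filters and folds moved the counts by construction. There were 1910 higher genes with a filter of 1 CPM, 579 higher and 584 lower with 20 CPM, and 2708 and 1887 without a filter. At 1.5-fold there were 2416 higher and 2123 lower, at 4-fold 258 and 182, and with the interval wholly beyond 2-fold 734 and 660. At 20 CPM the class lowest in GC content had 8.42% higher and 3.04% lower, and the highest class 3.23% and 14.7%. The counts under 3 other scalings are in the report, and the share of calls that were higher moved from 52.6% to between 44.6% and 49.3%. With totals without mitochondrial genes the counts were 1163 and 1020, with a pseudocount of 10 reads 1063 and 960, and with the filter in both libraries 785 and 793. The median log2 ratio of all genes lay between -0.05 (TMM) and 0.17 (no filter). Of 1680 values of gene lists under an alternative, 154 differed from the reported ones by more than the stated margins. Of 1398 values of single genes, 30 lost a call and 3 (CD14, under TMM, DESeq2 and upper-quartile factors) gained one. No called gene changed sign, and the signs of genes not called were not checked. After the subtraction for GC content, calls were also lost for CD55, ANLN, FANCG, FANCE, BBC3, IER2, CEBPD, ZNF446 and ZNF579. Medians of lists near 0, such as mitosis, mesenchymal, decay and snoRNA host genes, changed sign with the scaling and give no direction. Depth limits low genes, with 3 reads worth 0.239 CPM untreated and 0.209 CPM in the combination.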

Other observations

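The groups described here were put together after their values had been seen, so their counts are descriptions and support nothing. Of all compared genes 9.88% were higher and 8.91% lower, and 7.38% and 7.45% of those at 5 CPM or more in both libraries. Of 14 genes that respond to glucocorticoids, 4 were lower and 3 higher in the combination (median log2 ratio -0.47), in cultures that all held hydrocortisone. Among the 12 at 5 CPM or more in both libraries, 3 were lower and 2 higher. FKBP5, which encodes a co-chaperone of the receptor, had 1186 CPM untreated and 311 in the combination (-1.93). PDK4, a kinase gene that holds back pyruvate dehydrogenase, had 22.6 CPM untreated and 2.23 in the combination (-3.30). With TSC22D3 and GLUL these were the lower members. SGK1, a kinase gene, had 29.6 CPM untreated and 68.2 in the combination (1.2). CRISPLD2 had 38.5 CPM untreated and 118 in the combination (1.61). The third higher member was ANGPTL4. The receptor gene NR3C1 was not called (0.28). Of 14 circadian clock genes compared, 5 were lower and 2 higher (median -0.66), but 2 and 2 of the 11 at 5 CPM or more in both libraries. DBP, a clock output factor, had 26.5 CPM untreated and 3.97 in the combination (-2.72). PER3, a period gene, had 21.9 CPM untreated and 4.74 in the combination (-2.19). PER2 (-1.59) and TEF (-1.42) were also lower, CRY1 (1.0) and BHLHE41 (1.34) higher, and BMAL1 (0.15) and CLOCK (0.34) not called. The time of day of harvest is not given in the sources used here, so its part was not tested.

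Of 10 MHC class II genes 4 were compared (median 2.28), and 3 were higher and 0 lower. Among the 3 at 5 CPM or more in both libraries, 2 were higher. CD74, the invariant chain gene, had 5.34 CPM untreated and 27.4 in the combination (2.34). Its level was 25.4 CPM with palbociclib alone and 7.96 with indisulam alone. HLA-DPA1 had 5.81 CPM untreated and 27.4 in the combination (2.22). HLA-DRA had 3 reads untreated and 192 in the combination. HLA-DMA, which loads peptides, was not called (-0.93), and CIITA, the gene of the class II transactivator, was below the filter with 1.67 and 3.69 CPM. Of 14 pyruvate and glucose-sensing genes, 5 were lower and 0 higher (median -0.79). Among the 11 at 5 CPM or more in both libraries, 3 were lower. The 5 lower genes were PC, PDK4, MLXIPL, TXNIP and GLUL, while PDHA1 (-0.85), PDK1 (0.21) and ARRDC4 (-0.31) were not called.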
